A study of Mus musculus with 6 samples.

Results

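The comparison described here sets mouse embryoid bodies carrying human BRCA1 with the missense change R1699Q (RQ) against those carrying human BRCA1 with M1652I (MI). Its members are 4 of the 6 arrays of the study, 2 from RQ and 2 from MI, and they were chosen by their labels alone. The other 2 arrays hold embryoid bodies with wild-type human BRCA1 (WT). All groups were collected on day 7, and their strain is labelled 129S7/SvEv Brd-Hprt b-m2. Embryoid bodies are aggregates in which mouse embryonic stem cells start to differentiate; a step on gelatin took out the feeder cells first, per the labels' protocols. No source used here says how many clones or separate cultures stand behind the replicates, so p-values measure only the spread between these arrays, which may be technical. Each array had 2 colours, with the group's own RNA in Cy3 and RNA labelled as wild-type embryoid bodies in Cy5 on all 6 arrays, and no dye swap. The unit used throughout is the log2 ratio of Cy3 over Cy5, and a difference is RQ minus MI.

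BRCA1 is a tumour suppressor that acts in the repair of DNA breaks by homologous recombination, and both substitutions lie in its C-terminal BRCT repeats, which bind phosphorylated partner proteins. MicroRNAs are short RNAs that guide Argonaute proteins to messenger RNAs, mostly through pairing of the seed at their 5′ end, and lower the output of those messages. In embryonic stem cells of the mouse the miR-290 and miR-302/miR-367 clusters are the best known, and let-7, miR-125 and miR-145 rise as the cells differentiate.

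The sequences shown first are those of the microRNAs whose difference passed the test under the main scaling of the arrays and 4 others, and of relatives that share their seed. They are mature sequences from RefSeq (build GRCm38.p6), 5′ to 3′, with the seed, bases 2 to 8, in capitals. Of the 334 mouse microRNA probes on the array, 273 matched a RefSeq mature sequence through the complement that the probe carries. Of the microRNAs that passed under the main scaling and all 4 others, 4 were higher in RQ than in MI:
miR-26b: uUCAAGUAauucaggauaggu
miR-155: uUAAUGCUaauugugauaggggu
miR-302d: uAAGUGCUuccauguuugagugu
miR-367: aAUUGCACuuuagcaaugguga
The next set was lower in RQ than in MI, and pairs with a shared seed stand together. In it miR-27b stands as a relative of miR-27a, since it did not pass under all 4 other scalings:
miR-27a: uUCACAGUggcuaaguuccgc
miR-27b: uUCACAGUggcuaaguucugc
miR-148b: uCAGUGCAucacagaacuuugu
miR-152: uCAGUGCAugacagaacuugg
miR-365: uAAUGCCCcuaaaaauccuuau
The last set shares a seed with one of those above, or with each other, and its members are compared below:
miR-26a: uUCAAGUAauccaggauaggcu
miR-294: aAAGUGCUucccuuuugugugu
miR-103: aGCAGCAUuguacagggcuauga
miR-107: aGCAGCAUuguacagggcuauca
In the notation used here a substitution gives the first microRNA's base, its position from 1 at the 5′ end, and the second's base. The RefSeq sequences of miR-27a and miR-27b differ by C19U, those of miR-103 and miR-107 by G22C, those of miR-148b and miR-152 by C10G and U20G over 21 bases, and those of miR-26a and miR-26b by C11U and C21U over 21 bases.

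Between 241 and 249 of the 334 probes were well above background in Cy3 on the RQ and MI arrays, 228 of them on all 4. Replicates correlated at 0.993 in MI and 0.994 in RQ across the tested probes, a description across microRNAs rather than a test. The RQ arrays were brighter: the median ratio of RQ over MI was 1.32 for the net Cy3 intensity (mean signal minus local background) of the tested probes and 0.906 for that of Cy5. Negative control spots had mean net Cy3 of 93.0 and 102.8 on the RQ arrays against 43.8 and 59.4 on the MI arrays, and the scanner marked 99 and 66 outlier spots on the RQ arrays against 63 and 65. The part of these differences in the results was not tested. The reference channel went against its label: on both WT arrays, where either dye should hold the same kind of RNA, 155 of 294 tested microRNAs were over 2-fold apart between the dyes in one direction, 76 with Cy3 above Cy5 and 79 with Cy5 above Cy3. On WT arrays miR-294 had net Cy3 of 32466 and 18568 but net Cy5 of 46.0 and 29.3, and let-7c had net Cy3 of 498 and 499.5 but net Cy5 of 10729 and 10451. The level of a ratio is therefore not a distance from wild type. The difference between RQ and MI rests on Cy5 being alike on their arrays. Differences in Cy5 are tested below, but a test on 2 arrays a group cannot show that Cy5 is alike.

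The cell type label was checked against marker microRNAs. The miR-290 cluster, which marks pluripotent and early embryonic cells of the mouse, was well above background in Cy3 in all 7 of its members in either group. Its members miR-294, miR-295 and miR-293 were among the 10 brightest probes, beside miR-709, miR-690, miR-762, miR-494, miR-711, miR-705 and miR-805, of which miR-709, miR-690 and miR-762 reached the top of the scanner's range. In Cy3, 3 of 6 muscle and heart markers, 6 of 11 neural markers, 2 of 9 endoderm and liver markers on the array (6 tested), 4 of 8 blood markers and 6 of 7 epithelial markers were well above background in either group. The only endothelial marker on the array was not well above background. All 11 markers of mesenchyme, which feeder fibroblasts also express, were well above background in both groups, with a summed net Cy3 of 3690 and 4585 on the MI arrays and 6057 and 5580 on the RQ arrays. In such bulk RNA, fewer cells of a type and less RNA per cell cannot be told apart.

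Of 294 tested microRNAs, 32 differed between RQ and MI at an adjusted p under 0.05 (10.9% of those tested; limma with Benjamini-Hochberg adjustment). The miR-302/miR-367 cluster, miR-26b, miR-155, miR-652 and miR-34a were higher in RQ, and miR-27a, miR-27b, miR-103, miR-107, miR-365, miR-148b, miR-152, let-7g and miR-125a were among those lower. There were 9 higher microRNAs (3.06%) and 23 lower ones (7.82%), and 78 had an unadjusted p under 0.05 (26.5%). Sizes ran from 0.43 to 1.77 on the log2 scale, against a median of -0.10 over all tested microRNAs, and all 15 differences over 1 passed. For 230 microRNAs (78.2%) the 95% interval of the difference lay within 1 log2 unit of 0, and for 107 within 0.5. The median standard error was 0.14. On a single microRNA, an exact permutation test of 2 arrays against 2 cannot go below a two-sided p of 0.333, so every call rests on the spread that the fit shares across microRNAs and groups. The count fell to 0 in limma without MI replicate 1 (60 at an unadjusted p under 0.05), without MI replicate 2 (47) or without RQ replicate 2 (58), and to 1 (miR-652; 53 unadjusted) without RQ replicate 1. It was 48 on the 4 RQ and MI arrays alone. Leaving out either WT array repeats that fit, since the 1 WT array left adds nothing to the spread. With the spots kept that the scanner had marked as outliers, the count was 14.

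**Figure D1:**
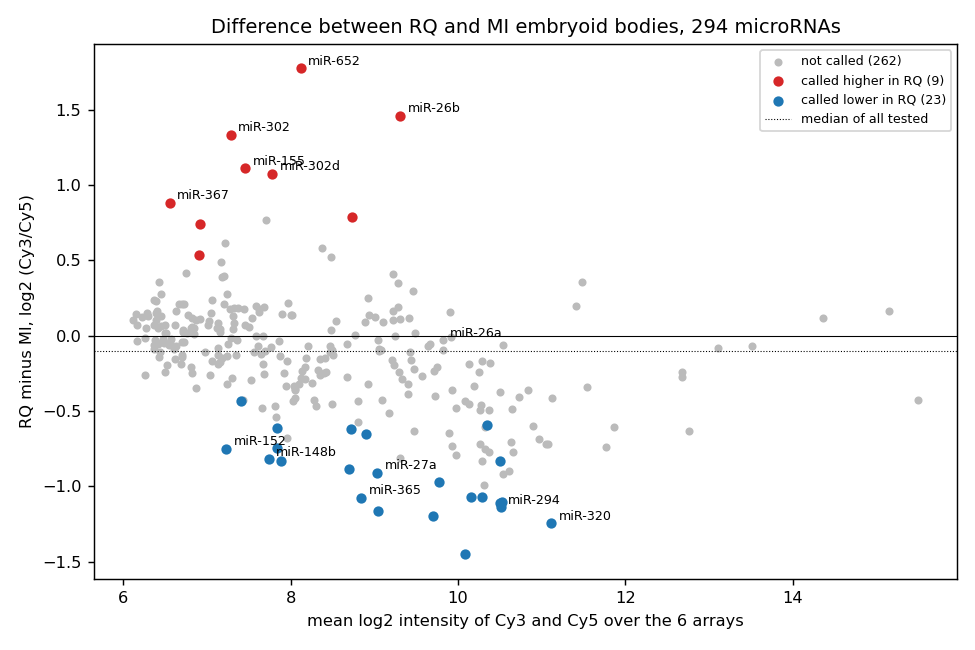
Difference between RQ and MI (log2 ratio of Cy3 over Cy5, y axis) against mean log2 intensity (x axis) for each of the 294 tested microRNAs, 1 point each, with the 9 called higher in red and the 23 called lower in blue. The called higher ones have a median intensity of 7.46 and the called lower ones of 9.05, against 8.02 over all tested, and many points that were not called lie below 0 at the higher intensities.

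The share of calls in either direction varied with the scaling of the arrays. After loess 28.1% of the calls were higher in RQ. Median centring of each array gave 31 calls (10.5% of those tested), 61.3% of them higher in RQ. A loess fitted on bright spots only gave 10 (3.4%), 40.0% of them higher. Cy3 alone gave 36 (12.2%), 41.7% of them higher, and the scanner's processed signals gave 27 (9.18%), 40.7% of them higher. Scaling Cy3 alone to a U6 control probe, a choice made after seeing the data, gave 8 calls, 100% of them higher. Among them were miR-155, miR-26b, miR-302, miR-302c*, miR-302d and miR-652. Under U6 scaling the adjusted p-values of the named microRNAs followed the order of the size of the difference. That count thus acts as a cut on size and is not comparable with those of the other scalings. All 9 higher calls kept their sign under median centring, bright loess, Cy3 alone and processed signals. Of the lower calls, miR-320 and miR-214 had the opposite sign after median centring and in Cy3 alone, and the other 21 kept theirs. Passing the test in the main fit and these 4 others were 8 microRNAs (2.72% of those tested): miR-26b, miR-155, miR-302d and miR-367 higher, and miR-27a, miR-365, miR-148b and miR-152 lower.

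**Figure D2:**
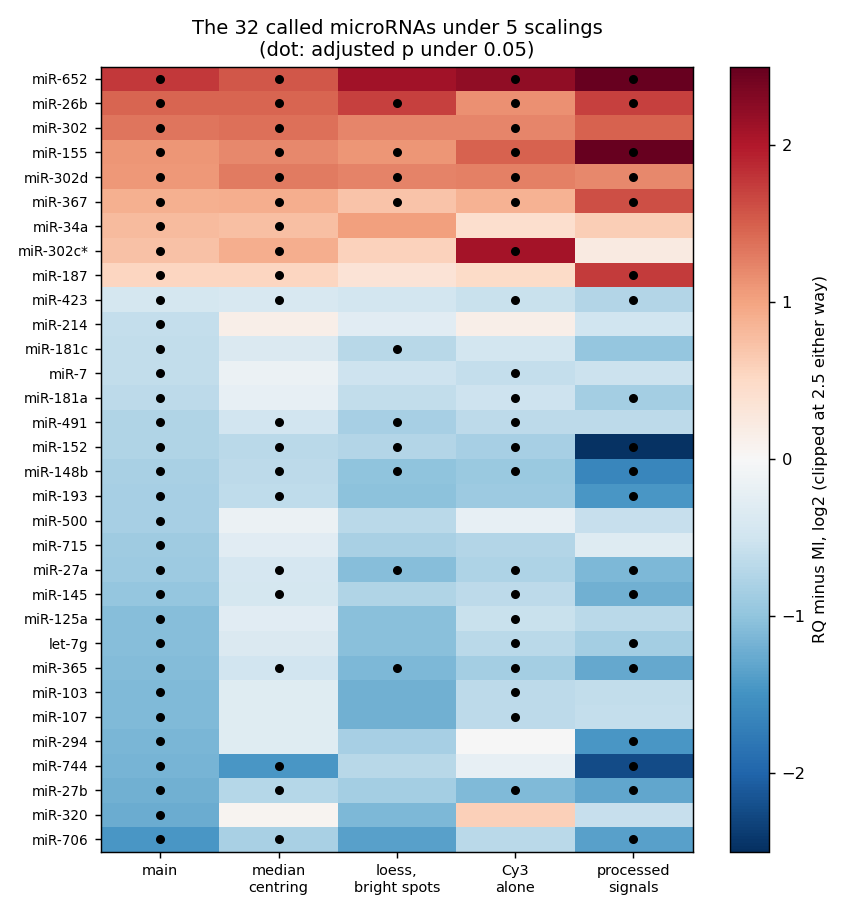
Difference between RQ and MI for the 32 called microRNAs (y axis) under the main loess scaling and 4 others (x axis), coloured by log2 difference, with a dot where the adjusted p was under 0.05. Rows of miR-26b, miR-155, miR-302d, miR-367, miR-27a, miR-365, miR-148b and miR-152 carry dots in all 5 columns, while miR-320, miR-214, miR-500 and miR-715 carry one in the main column only.

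The miR-302/miR-367 cluster was higher in RQ embryoid bodies. It is transcribed as one precursor and is a hallmark of pluripotent and early epiblast-like cells. Its coordinates on chromosome 3 fall within the spans of Larp7 and Gm51018, whose strands were not compared with its own. Of 5 members on the array, 4 were tested and all 4 were called higher, with a median difference of 0.98 against -0.10 over all tested; the median was between 0.96 and 1.34 under the 4 other scalings. The fifth, miR-302b*, was not well above background. In Cy3, 3 of the tested members were well above background on both MI arrays and 4 on both RQ arrays. miR-302c* was so in RQ only, where it is high, so its place among the tested is not separate support. With a filter on Cy3 on all 4 arrays miR-302c* was not tested, and miR-302d, miR-302 and miR-367 were called.

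miR-302d (chr3:127545665-127545687, plus strand) carries the seed AAGUGCU, which it shares with miR-294 and miR-295. Its net Cy3 intensity was 353 and 375 on the MI arrays and 1290 and 1366 on the RQ arrays. The log2 ratio was 2.39 and 2.56 in MI and 3.57 and 3.53 in RQ, a difference of 1.08 ± 0.12 (SE, n = 2 arrays a group; adjusted p = 0.0146). WT arrays lay above both groups at 4.15 and 4.02.

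For miR-302, the name the array's design gives, net Cy3 was 159 and 206 in MI and 670 and 638 in RQ. The difference was 1.33 ± 0.29 (adjusted p = 0.0394), with RQ above MI on every array. It was not called with loess on bright spots (adjusted p = 0.0997), in processed signals (adjusted p = 0.0689), with outlier-marked spots kept (adjusted p = 0.0563) or with no filter on dim probes (adjusted p = 0.0578). For miR-367 (chr3:127545779-127545800, plus strand) net Cy3 was 69.1 and 79.8 in MI and 201 and 201 in RQ. Its difference of 0.88 ± 0.10 had an adjusted p of 0.0146, and its ratios in RQ (1.43 and 1.40) were close to those in WT (1.34 and 1.31). These 3 microRNAs had net Cy5 of 8.15 to 31.8 on the RQ and MI arrays, so their ratios carry little reference signal and their differences are mainly those of Cy3. In Cy3 alone the differences were 1.26 for miR-302d, 1.21 for miR-302 and 0.86 for miR-367, which had 1.62 in processed signals.

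The star strand miR-302c* stood apart from the rest of its cluster. Net Cy3 was 37.1 and 49.98 in MI, 378 and 338 in RQ and 54.3 and 40.9 in WT, so WT lay with MI rather than with RQ. MI arrays did not measure it above background in Cy3, and RQ was at least 3.25-fold higher after loess and Aquantile scaling. That bound sets the RQ mean against the lowest signal still well above background. The ratio differed by only 0.74 ± 0.15 (adjusted p = 0.037), since net Cy5 moved as well, from 9.93 and 12.4 in MI to 84.8 and 95.5 in RQ. In Cy3 alone the difference of miR-302c* was 2.08 (adjusted p = 0.000695), in processed signals it was 0.22 (adjusted p = 0.625), and it was not called with loess on bright spots (adjusted p = 0.0608) or with outlier-marked spots kept (adjusted p = 0.0563).

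**Figure D3:**
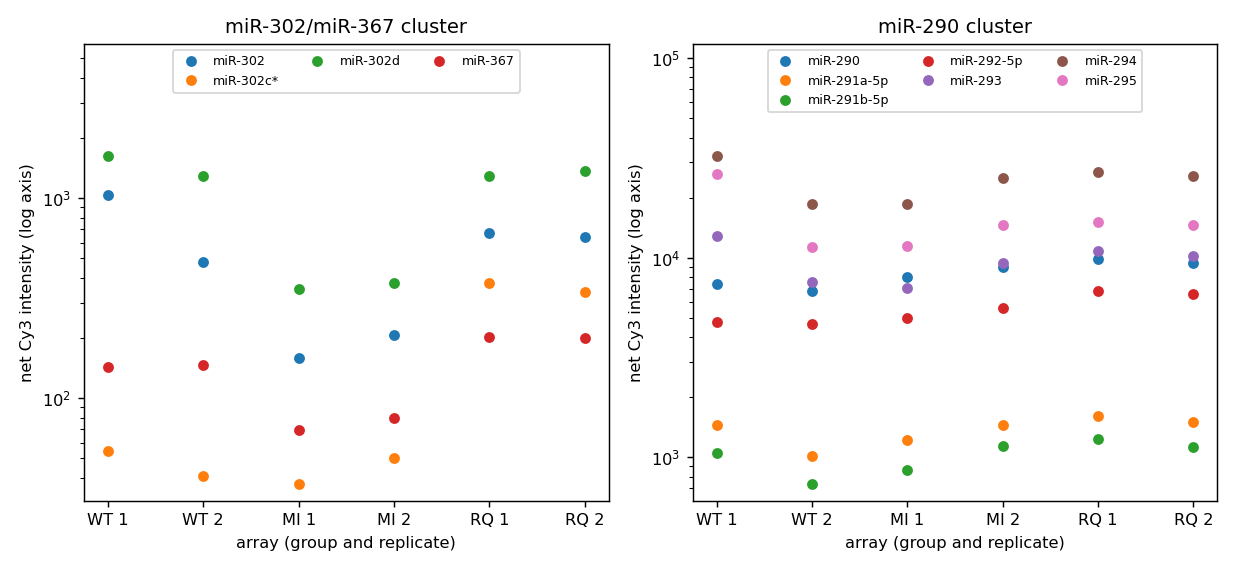
Net Cy3 intensity (log y axis) of the tested members of the miR-302/miR-367 cluster (left) and the miR-290 cluster (right) on each of the 6 arrays (x axis), 1 point per microRNA and array. Members of miR-302/miR-367 are at 37.1 to 375 on the MI arrays and 201 to 1366 on the RQ arrays, while those of miR-290 overlap or lie slightly higher in RQ.

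The miR-290 cluster did not follow miR-302/miR-367. All 7 tested members had a negative difference, from -1.14 to -0.16 with a median of -0.43. Only miR-294 was called (difference -1.14 ± 0.20, adjusted p = 0.0305), beside 7.82% of all tested microRNAs called lower. For miR-294 (chr7:3220691-3220712, plus strand) the log2 ratio was 8.79 and 9.36 in MI and 7.85 and 8.02 in RQ, without overlap. Its net Cy3 went the other way, with 18618 and 25018 in MI and 26891 and 25594 in RQ, while net Cy5, close to background, was 30.2 and 33.5 in MI and 47.5 and 53 in RQ. In Cy3 alone the difference of miR-294 was -0.0049 (adjusted p = 0.988), which was also the median of the cluster there, and it was not called after median centring (-0.30, adjusted p = 0.335) or with loess on bright spots (adjusted p = 0.0929). miR-295, with the same seed, had a difference of -0.73 ± 0.32 (adjusted p = 0.209). The summed net Cy3 of the cluster was 52068 and 66227 in MI and 72210 and 68951 in RQ. miR-302d and miR-294 thus share bases 2 to 8 and had called differences of opposite sign on the ratio scale, but not in Cy3 alone, where only miR-302d passed.

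miR-26b was higher in RQ, and its close relative miR-26a was not. The miR-26 family acts on cell-cycle genes and on the Polycomb gene Ezh2, and its members lie within genes of the Ctdsp family of small phosphatases, miR-26b (chr1:74394324-74394344, plus strand) in Ctdsp1. Net Cy3 of miR-26b was 163 and 182 in MI, 527 and 681 in RQ and 583 and 349 in WT, so MI stood apart from both. The difference was 1.46 ± 0.19 (adjusted p = 0.0146), 2.75-fold on the ratio scale. miR-26a, which comes from Ctdspl and Ctdsp2, had log2 ratios of -1.86 and -2.02 in MI and -2.09 and -1.86 in RQ, which overlapped. Its difference of -0.03 ± 0.13 (adjusted p = 0.885) had a 95% interval from -0.36 to 0.30 and turned positive under each of the 4 other scalings. Both groups were below WT in miR-26a (-1.41 for RQ, adjusted p = 0.00808, and -1.38 for MI, adjusted p = 0.00375), where the WT arrays are shared. Their mature sequences differ outside the seed, as shown above; how far either probe takes up the other RNA was not tested.

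miR-155 was higher in RQ. It is processed from the non-coding host gene Mir155hg, acts in B cells and inflammation, and is known as a target of repression by BRCA1. At chr16:84714143-84714165, plus strand, it has a seed of its own, UAAUGCU. Net Cy3 was 74.8 and 68.0 in MI, 422 and 334 in RQ and 48.9 and 56.0 in WT, and RQ did not overlap either group. The log2 ratio was -0.75 and -0.93 in MI and 0.44 and 0.10 in RQ, a difference of 1.11 ± 0.15 (adjusted p = 0.0157), or 2.16-fold. The scanner marked some of its spots as outliers on the RQ arrays, so that RQ replicate 1 kept 2 of its 4 and RQ replicate 2 kept 1. Before that removal the 4 spots read 908, 701, 142 and 681 on RQ replicate 1 and 828, 334, 419 and 537 on RQ replicate 2, against at most 80 on the MI arrays. With all spots kept the difference was 1.51 (adjusted p = 0.00572). Its size moved with the background correction, to 1.75 with a floor on net signal and 2.70 in processed signals, beside 1.20 after median centring and 1.47 in Cy3 alone. Of 8 blood markers, which include miR-155, 1 was called higher and 0 lower, beside 10.9% called over all tested microRNAs. Their median difference was -0.13. In this list miR-150 had 0.52 (adjusted p = 0.067), miR-223 -0.33 (adjusted p = 0.203) and the erythroid miR-451 -0.63 (adjusted p = 0.0615). The summed net Cy3 of the blood list was 1141 and 1274 in MI and 1791 and 1668 in RQ, and its part in the miR-155 difference was not tested. Of 7 microRNAs that respond to NF-kB, miR-155 was the only one called, and the median of that list was -0.03.

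miR-652 had the largest difference. It lies in the X-linked gene Tmem164 (chrX:142739060-142739080, plus strand) and its mature sequence is
miR-652: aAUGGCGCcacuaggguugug
with the seed in capitals. Net Cy3 was 86.2 and 91.3 in MI and 535 and 950 in RQ, with 124 and 110 in WT. The log2 ratio was -0.89 and -1.06 in MI and 0.35 and 1.25 in RQ, a difference of 1.77 ± 0.29 (adjusted p = 0.0237). The RQ replicates spread more than in any other called microRNA (SD 0.63), and the difference from MI was larger than that spread. Net Cy5 of miR-652 was also higher in RQ, 261 and 361 against 148 and 161 in MI, with a Cy5 difference of 0.83 (adjusted p = 0.222). It passed under 3 of the 4 other scalings, with 2.82 in processed signals, and not with loess on bright spots (adjusted p = 0.0518).

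The last 2 higher calls were miR-34a and miR-187. miR-34a, a direct target of p53 that restrains the cell cycle, had net Cy3 of 268 and 319 in MI and 611 and 559 in RQ, and a difference of 0.79 ± 0.17 (adjusted p = 0.0376). It passed after median centring but not in Cy3 alone (0.42, adjusted p = 0.0929), in processed signals (0.62, adjusted p = 0.216), with loess on bright spots (adjusted p = 0.0525) or with outlier-marked spots kept (adjusted p = 0.0563). Of 5 members of the miR-34/miR-449 family on the array, miR-34a was the only one called; miR-449 had 0.58 ± 0.19 (adjusted p = 0.115), miR-34b -0.32 and miR-34c -0.27, and the median was -0.06. The p53-linked list as a whole had 1 of 11 members called higher and 2 lower, beside 3.06% and 7.82% of all tested microRNAs. miR-187 differed by 0.53 ± 0.11 (adjusted p = 0.037), with net Cy3 of 64.5 and 63.0 in MI and 126 and 154 in RQ. In processed signals the difference of miR-187 was 1.74 (adjusted p = 0.0081), and it was not called in Cy3 alone (adjusted p = 0.0711), with loess on bright spots (adjusted p = 0.0946) or with outlier-marked spots kept (adjusted p = 0.0563).

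Among the lower calls, both members of the miR-27 family were lower in RQ. They act in fat and muscle differentiation. miR-27a lies with miR-23a and miR-24-2 on chromosome 8 (chr8:84208727-84208747, plus strand), and miR-27b with miR-23b and miR-24-1 within Aopep on chromosome 13 (chr13:63300760-63300780, plus strand). Net Cy3 of miR-27b was 464 and 519 in MI and 312 and 323 in RQ, and its difference was -1.19 ± 0.17 (adjusted p = 0.0157). For miR-27a net Cy3 was 200 and 238 in MI and 180 and 169 in RQ, and the difference was -0.91 ± 0.12 (adjusted p = 0.0146). After median centring the differences were -0.70 for miR-27b and -0.43 for miR-27a, both called, and miR-27b was not called with loess on bright spots (adjusted p = 0.0946). Their sequences differ at base 19 only, so how far the probes measure either RNA apart was not tested. The other members of both clusters were not called: miR-23a had -0.46 ± 0.14 (adjusted p = 0.104), miR-24 -0.43 ± 0.13 (adjusted p = 0.0947) and miR-23b -0.37 ± 0.15 (adjusted p = 0.173). For these 3, net Cy3 was higher in RQ on every array, and miR-23a and miR-24 had a positive difference after median centring. miR-23b was named after its values were seen.

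miR-103 and miR-107, which lie in introns of the pantothenate kinase genes Pank3, Pank2 and Pank1 and act in lipid and insulin metabolism, were both lower in RQ. The differences were -1.10 ± 0.23 and -1.11 ± 0.24 (both with an adjusted p of 0.037). Net Cy3 was 1034 and 1187 in MI and 992 and 937 in RQ for miR-103, and 986 and 1192 against 976 and 923 for miR-107, so the groups were separated by a small gap. Their values lay close together on each array and their sequences differ at base 22 only; how far either probe takes up the other RNA was not tested. Both passed in Cy3 alone (-0.65 and -0.66). Neither passed after median centring (-0.30 in both), with loess on bright spots (adjusted p = 0.0518 and 0.0567), in processed signals (-0.61 and -0.60) or with outlier-marked spots kept (adjusted p = 0.058 and 0.0563).

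The miR-148/miR-152 family, which targets the DNA methyltransferase Dnmt1, was lower in 2 of its 3 members. miR-148b lies in Copz1 (chr15:103285185-103285206, plus strand) and miR-152 in the related gene Copz2 (chr11:96850439-96850459, plus strand). Net Cy3 of miR-148b was 168 and 176 in MI and 124 and 118 in RQ, with a difference of -0.82 ± 0.12 (adjusted p = 0.0207). miR-152 had net Cy3 of 106 and 131 in MI and 75.5 and 84.3 in RQ, where it was not well above background. After loess and Aquantile scaling the bound put MI at least 1.91-fold higher in Cy3, a value that depends on that scaling. In Cy3 alone the difference of miR-152 was smaller, at -0.83 on the log2 scale. The ratio differed by -0.75 ± 0.13 (adjusted p = 0.0305). In processed signals the differences were -1.62 for miR-148b and -2.46 for miR-152. miR-148a, with the same seed, overlapped between the groups at -0.07 ± 0.26 (adjusted p = 0.866). The related miR-130a, which has another seed, had -0.40 ± 0.14 (adjusted p = 0.14), a sign that turned after median centring, with loess on bright spots and in Cy3 alone. miR-148a was named after its values were seen.

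miR-365 and miR-193 were lower in RQ. Copies of both lie 14.4 kb apart on chromosome 11 (miR-193 at chr11:79712009-79712030 and miR-365 at chr11:79726467-79726488, plus strand), and miR-365 has another copy on chromosome 16. Net Cy3 of miR-365 was 178 and 221 in MI and 154 and 144 in RQ, with a difference of -1.07 ± 0.13 (adjusted p = 0.0146). Net Cy3 of miR-193 was 215 and 230 in MI and 158 and 166 in RQ, with a difference of -0.83 ± 0.18 (adjusted p = 0.037). miR-365 was called under all 4 other scalings, with -0.48 after median centring, while miR-193 was not called in Cy3 alone (adjusted p = 0.0581), with loess on bright spots (adjusted p = 0.0518) or with outlier-marked spots kept (adjusted p = 0.0563), and had -1.45 in processed signals. For both, RQ lay below MI without overlap in the ratio and in net Cy3, a pattern that only 16 of 294 tested microRNAs (5.44%) had in net Cy3.

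Among microRNAs that rise on differentiation, let-7g, miR-125a and miR-145 were lower in RQ after loess, and let-7b and let-7c were higher under 3 of the 4 other scalings. Of 9 let-7 members, 7 had a negative difference and let-7g alone was called (-1.07 ± 0.23, adjusted p = 0.037), with a median of -0.29. Its net Cy3 was 258 and 313 in MI and 241 and 233 in RQ, after removal of an outlier-marked spot that read 954 on RQ replicate 1 and 759 on RQ replicate 2. With such spots kept the difference of let-7g was -0.65 (adjusted p = 0.184), after median centring it was -0.37 (adjusted p = 0.0822), and with loess on bright spots it had an adjusted p of 0.0662. let-7d (-0.90), let-7a (-0.72) and let-7f (-0.72) had adjusted p-values of 0.123, 0.156 and 0.121. Of these, let-7f alone was called in Cy3 alone (-0.51, adjusted p = 0.0393), and it was not called after median centring (-0.09, adjusted p = 0.617). let-7b and let-7c went the other way, with net Cy3 of 603 and 904 in MI against 2036 and 1890 in RQ for let-7b and 514 and 543 against 1589 and 2029 for let-7c. The ratio of both overlapped between the groups (0.20 and 0.36, adjusted p = 0.744 and 0.469), but after median centring they differed by 1.39 and 1.73 (adjusted p = 0.00189 and 0.000263). In Cy3 alone they differed by 0.81 and 1.16 (adjusted p = 0.0355 and 0.0309), and in processed signals by 0.86 and 1.21 (adjusted p = 0.0483 and 0.0141). let-7b and let-7c were named after their values were seen. In the miR-99/100 and miR-125 families all 6 differences were negative and miR-125a alone was called (-1.07 ± 0.24, adjusted p = 0.0399). Of the 4 other scalings miR-125a passed in Cy3 alone (-0.56, adjusted p = 0.0355), and it had -0.29 after median centring (adjusted p = 0.145). miR-125b, with the same seed, had -0.83 ± 0.24 (adjusted p = 0.0914). It was called in Cy3 alone (-0.41, adjusted p = 0.0355) but not after median centring (-0.07, adjusted p = 0.682). miR-145, a smooth-muscle microRNA that represses pluripotency factors, had net Cy3 of 142 and 181 in MI and 138 and 136 in RQ and a difference of -0.97 ± 0.18 (adjusted p = 0.0339), which was -0.44 after median centring (adjusted p = 0.0385) and was not called with loess on bright spots (adjusted p = 0.138). Its neighbour miR-143 had -0.39 ± 0.25 (adjusted p = 0.365). miR-145 and miR-214 were the only called members of the 11 mesenchymal markers, both lower, and miR-214 turned positive after median centring and in Cy3 alone.

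The miR-181 family, which acts in muscle and lymphoid differentiation, was lower in 2 of 3 members. miR-181a differed by -0.65 ± 0.12 (adjusted p = 0.0339) and miR-181c by -0.61 ± 0.11 (adjusted p = 0.0309), while miR-181b had -0.46 ± 0.13 (adjusted p = 0.0855). After median centring neither called member passed (-0.20, adjusted p = 0.301 for miR-181a and -0.36, adjusted p = 0.0628 for miR-181c). The call of miR-181a was also lost with loess on bright spots and with the floor on net signal, and that of miR-181c in Cy3 alone, in processed signals and with outlier-marked spots kept. Net Cy3 overlapped between the groups for both called members (150 and 181 in MI against 151 and 161 in RQ for miR-181a). Both lines lay above WT in miR-181a, MI by 1.28 and RQ by 0.62.

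The remaining lower calls were miR-706 (-1.45 ± 0.23, adjusted p = 0.0237), miR-320, miR-744, miR-715 (-0.88 ± 0.19, adjusted p = 0.037), miR-500 (-0.83 ± 0.16, adjusted p = 0.0339), and miR-491, miR-7 and miR-423, of which the last 3 were named after their values were seen (-0.75, -0.62 and -0.43). Net Cy3 of miR-706 was 2914 and 3129 in MI and 2346 and 2914 in RQ, and it was not called in Cy3 alone (-0.67, adjusted p = 0.172) or with loess on bright spots (adjusted p = 0.0518). miR-320, miR-500 and miR-715 were called under none of the 4 other scalings, and miR-744 after median centring and in processed signals only. For miR-320 (-1.24 ± 0.24, adjusted p = 0.035), miR-744 (-1.16 ± 0.22, adjusted p = 0.0339) and miR-500 net Cy3 was higher in RQ, for example 1081 and 1269 in MI against 1364 and 1524 in RQ for miR-744. In all, net Cy3 was lower in RQ without overlap for 13 of the 23 lower calls, beside 5.44% of all tested microRNAs, overlapped for 5 and was higher for 5. It was higher in RQ for all 9 higher calls, but also for 72.1% of all tested microRNAs.

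**Figure D4:**
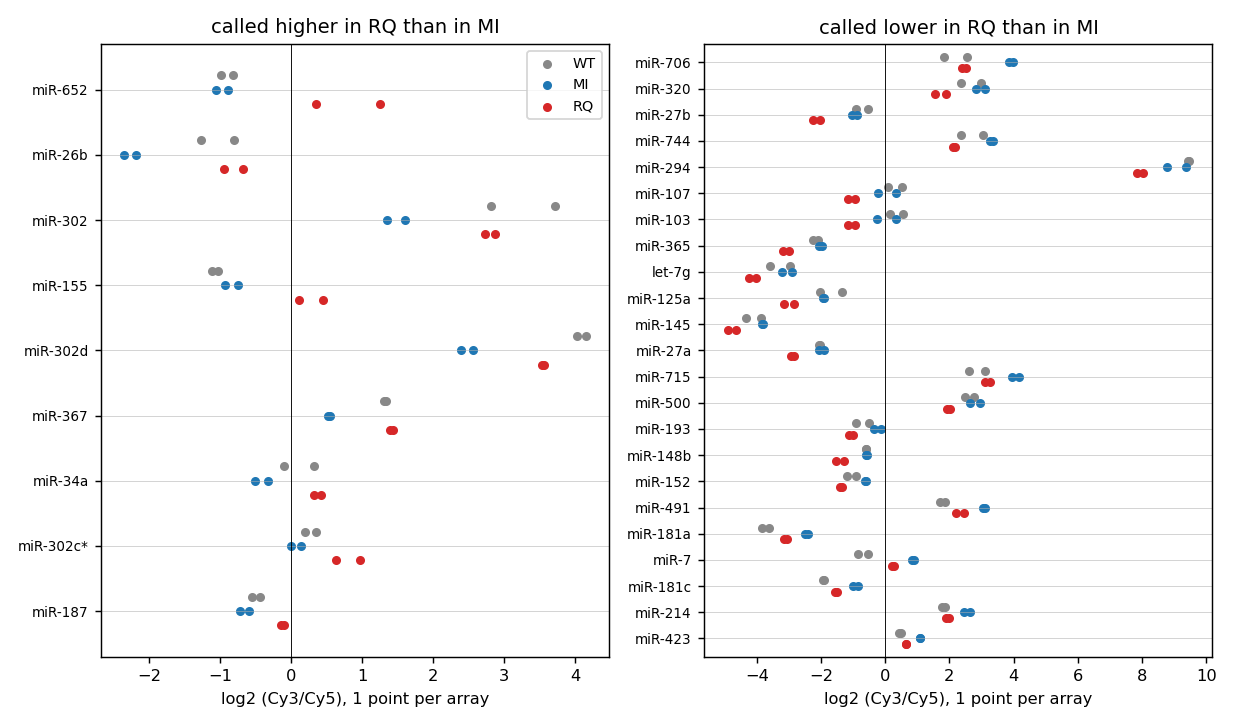
Log2 ratio of Cy3 over Cy5 (x axis) on each array for the 9 microRNAs called higher (left) and the 23 called lower (right) in RQ, 1 point per array, with WT in grey, MI in blue and RQ in red. RQ and MI do not overlap in any of the 32, and the WT points fall beside, between or outside both groups.

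Across all tested microRNAs, the log2 ratios of RQ and MI did not overlap in 65.0%, so separation on 2 arrays against 2 was common. The largest clusters on the array gave 0 calls in limma. Over all tested microRNAs 10.9% were called and 26.5% had an unadjusted p under 0.05. Of 41 tested members of the Dlk1-Dio3 cluster, an imprinted cluster on chromosome 12, 0 were called, with a median of 0.0014 and a range from -0.60 to 0.35, and 3 had an unadjusted p under 0.05. Of 12 members of miR-17-92 and its paralogues, proliferation-linked clusters, 0 were called, with a median of 0.03, and 2 had an unadjusted p under 0.05. The miR-15/16, miR-29 and miR-30 families, the Sfmbt2 intron cluster, the Hox cluster microRNAs, the miR-183, miR-96 and miR-182 cluster, and the muscle and heart, neural, endoderm and liver, endothelial, epithelial and hypoxia lists likewise had 0 calls in limma, and 6 of their 62 tested members had an unadjusted p under 0.05. Among these, the miR-29 family had a median of -0.48 over 3 members, which became 0.17 after median centring. In the Clcn5 intron cluster miR-500 was the only one of 5 called, with a median of 0.07.

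The seed of miR-367, AUUGCAC, is shared by miR-32 and by miR-25, miR-92 and miR-363 of miR-17-92 and its paralogues. All 5 had a positive difference, from 0.02 to 0.88 with a median of 0.41, and only miR-367 was called. miR-363 had 0.62 ± 0.19 (adjusted p = 0.102) and miR-92 0.41 ± 0.12 (adjusted p = 0.0947). The relatives of miR-367 were named after their values were seen.

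Since Cy5 should hold one reference, its own difference between RQ and MI arrays is the background for the comparison. In Cy5 alone, 3 of 294 microRNAs (1.02%) differed at an adjusted p under 0.05 and 30 at an unadjusted one, and all 3 were higher on the RQ arrays. They were miR-302c* (1.16 ± 0.08, adjusted p = 0.00922), miR-744 (1.48 ± 0.14, adjusted p = 0.0218) and miR-361 (0.57 ± 0.04, adjusted p = 0.00922, named after its values were seen). miR-302c* and miR-744 were also called in the ratio. For miR-744 net Cy5 was 78.6 and 79.8 in MI and 262 and 339 in RQ, and in Cy3 alone its difference was -0.21 (adjusted p = 0.708); the larger of both differences was that in Cy5. The count in Cy5 was 0 in limma on the 4 RQ and MI arrays alone (27 unadjusted), and leaving out either WT array repeats that fit. Without an RQ or MI array the count changed as well, with 1 array left in that group. With median centring of Cy5 in place of quantile normalisation, 3 were called and 55 had an unadjusted p under 0.05 in limma. Either scaling removes a shift of the whole channel, so such a shift could not be seen here.

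Set beside WT, the 32 calls fell into different arrangements. Both contrasts use the same 2 WT arrays, so only their values are given. In RQ minus WT 63 of 294 microRNAs were called (21.4%) and in MI minus WT 46 (15.6%). In miR-302, miR-302d, miR-367 and miR-26b it was MI that lay far from WT: by -1.79, -1.61, -0.79 and -1.23, each called, while RQ was at -0.46, -0.54, 0.09 and 0.23, with only miR-302d called. In miR-155 and miR-652 RQ was called, at 1.35 and 1.71 above WT, and MI was at 0.24 and -0.07. Of the 23 lower calls, 12 were called in RQ against WT alone, among them miR-27b (-1.42 for RQ, -0.23 for MI), miR-103 (-1.40 and -0.30), miR-365 (-0.90 and 0.17) and miR-148b (-0.80 and 0.02). Another 5 were called in MI alone, such as miR-706 (0.27 for RQ and 1.72 for MI) and miR-715 (0.32 and 1.20), 3 in both (miR-181a, miR-491 and miR-7, with both lines above WT) and 3 in neither (miR-152, miR-193 and miR-744).

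**Figure D5:**
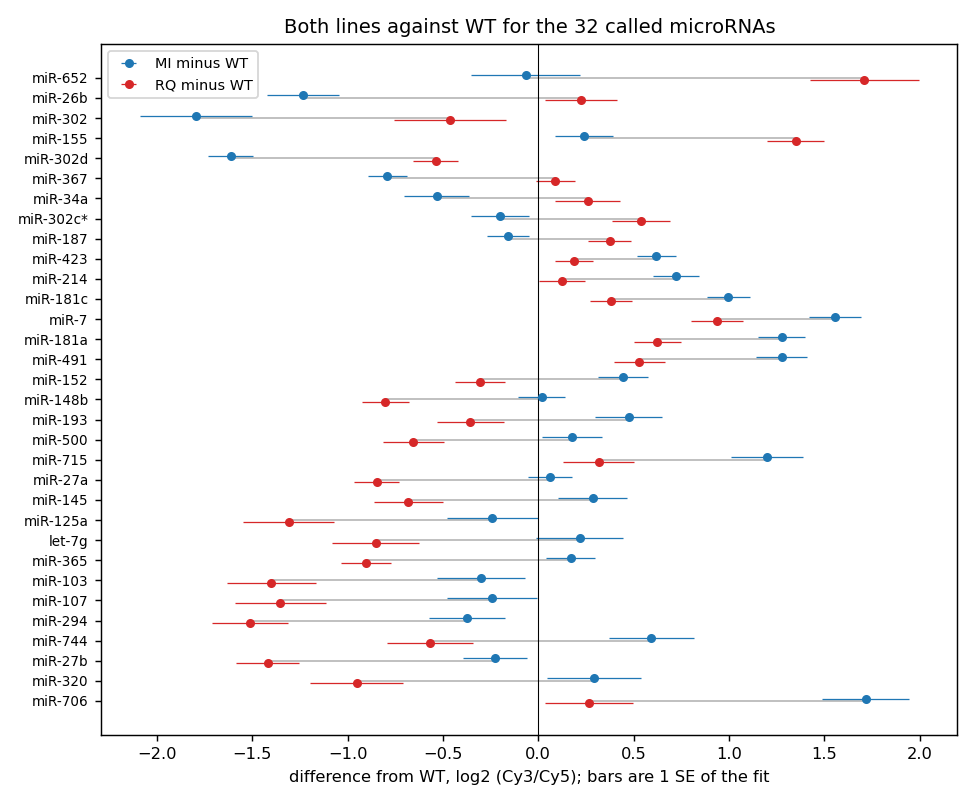
Difference from WT (log2 ratio, x axis) of MI in blue and RQ in red for the 32 called microRNAs (y axis), ordered by RQ minus MI, with bars of 1 standard error of the fit and a grey line joining the pair. MI lies far below 0 in miR-302, miR-302d, miR-26b and miR-367, and RQ in miR-294, miR-27b, miR-103, miR-107 and miR-125a.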

How the data were processed

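Mature microRNAs were measured on 6 Agilent arrays, 2 each for WT, MI and RQ, on 1 slide. The deposited files hold, per the file headers, the mean and median local background intensity of each spot in both dyes on a linear scale and processed intensity values made by Agilent Feature Extraction. The deposited value table equals minus the scanner's log10 ratio of Cy5 over Cy3, with a largest difference of 0 over 1932 features and a median of 0 in each column. A ligase joined the dyes to RNA 3′ ends, per the labels' protocols.

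Local background was corrected by normexp with an offset of 50, and loess was then run on each array with weight 0 for control and outlier-marked spots, in limma 3.58.1 under R 4.3.3. Outlier-marked spots were removed and the others of 4 per probe averaged. Probes were tested where over 0.5 of their spots were well above background in either dye on at least 2 arrays (294 of 334). lmFit and eBayes were run on all 6 arrays (3 residual and 2.99 prior degrees of freedom), with Benjamini-Hochberg adjustment over the 294, a threshold of 0.05 and no set test; the scripts were tested on simulated data. The number of arrays limits the precision. Cy5 alone and Cy3 alone were quantile-normalised. Bounds use Cy3 after loess and Aquantile scaling and are open to dye bias, since dyes were not swapped.

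Named were miR-155, the 15 largest called rises and falls, calls under all scalings, up to 4 members with the largest difference of each list with a call, and the 10 brightest probes; exceptions are marked. The comparison and lists were chosen with earlier results of these data known. Replicate numbers shared by RQ and MI deviated together with a correlation of 0.04 and were not treated as pairs. Sequences are from RefSeq (GRCm38.p6).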

Additional observations from a re-analysis of the deposited data

Results flagged for a closer look

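Control probes outside the tested microRNAs were compared as well. Of 75 control probes, 6 had net Cy3 on both RQ arrays over 2 times that of every MI and WT array. The lowest RQ array over the highest other array was 9.89 for ETG10_13482, 4.11 for (+)E1A_r60_3, 3.87 for (+)E1A_r60_a20, 3.50 for RC3, 3.44 for DCP_20_0 and 2.23 for ETG08_142674. Net Cy3 of ETG10_13482 was 55.5 and 71.8 in MI and 710 and 978 in RQ, and its net Cy5 also went from 20.5 and 27.9 to 252 and 332. All 6 probes were higher in Cy5 as well, by 2.13 to 12.1 times for RQ over MI. The part of this control signal in the microRNA results was not tested. No group held enough arrays to ask whether a single array lay apart.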

How the results depend on the processing

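The 32 calls numbered 31 after median centring, 10 with loess on bright spots, 36 in Cy3 alone, 27 in processed signals and in the deposited value table, 34 with a floor of 16, 30 without a filter, 28 with a Cy3 filter, 14 with outlier spots kept and 48 on the 4 RQ and MI arrays. Of the same 32 calls, 20, 10, 21, 19, 19, 28, 30, 28, 14 and 32 remained, in the order median centring, bright loess, Cy3 alone, processed signals, value table, floor, no filter, Cy3 filter, outlier spots kept, 4 arrays. Cy3 alone scaled to U6, chosen after seeing the data, called 8, of which 6 were among the 32. Calls ranged from 0 to 48 when an array was left out, and the calls that remained from 0 to 32. Lists with a call numbered 15, and 7 with bright loess, 8 with outlier spots kept, 5 with U6 and 0 at the lowest when an array was left out.

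With the replicate number as a block 38 microRNAs were called, 31 of them among the 32. In Cy5 the 3 calls became 0 with the replicate block (26 unadjusted) and 0 on the 4 RQ and MI arrays (27 unadjusted), and 0 to 5 when an array was left out. Deviations of RQ and MI arrays with a shared number correlated at 0.04 across microRNAs, and 2 pairs cannot decide whether such arrays belong together.

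The sign turned for these. After median centring it was 0.077 for miR-320, 0.27 for miR-23a, 0.19 for miR-24, 0.48 for miR-26a, 0.10 for miR-100, 0.37 for miR-130a, 0.083 for miR-34c, 0.011 for miR-223, 0.065 for miR-21, 0.15 for miR-214, 0.35 for miR-29a, 0.041 for miR-9, 0.13 for miR-188 and -0.016 for miR-532. With bright loess it was 0.065 for miR-26a, 0.023 for miR-130a, -0.058 for miR-501 and -0.10 for miR-532. In Cy3 alone it was 0.60 for miR-320, 0.012 for miR-295, 0.049 for miR-26a, 0.49 for miR-130a, 0.15 for miR-214, 0.035 for miR-29a and 0.27 for miR-188. With U6 it was 0.49 for miR-320, 0.049 for miR-23a, 0.21 for miR-26a, 0.51 for miR-130a, 0.26 for miR-214, 0.14 for miR-29a, 0.46 for miR-188, -0.087 for miR-501 and -0.15 for miR-532. Processed signals gave 0.22 for miR-26a and 0.14 for miR-9, the deposited values 0.21 for miR-26a and 0.14 for miR-9, and the floor 0.11 for miR-26a, 0.064 for miR-100 and 0.089 for miR-9. miR-26a was 0.048 without MI replicate 1 and 0.087 without RQ replicate 1. The cause was not tested. Scaling moved the median of all tested microRNAs from -0.10 to 0.06 after median centring.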

Other observations

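A control probe for the 3′ end of U6, an abundant nuclear RNA, had net Cy3 of 6440 and 8354 in WT, 9251 and 11544 in MI and 13843 and 13046 in RQ. Its net Cy5 was 5892 and 6483 in MI and 5651 and 5961 in RQ. The array's linker control read 6198 in Cy3 on RQ replicate 2 against 190 to 259 on the other 5 arrays. In Cy5 it read 2542 on that array against 124.5 to 157 on the others. Another control probe, (+)eQC-41, read 3827 in Cy3 on RQ replicate 2 against 95.2 to 210 on the others. Its Cy5 was 2135 there against 13.8 to 19.85. The part of these readings in the results was not tested.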
